A study of Homo sapiens with 9 samples.

Results

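The comparison described here is that of LNCaP cells given merbarone before dihydrotestosterone (DHT) with LNCaP cells given DHT alone, 1 array a side, so that 2 of the 9 arrays of the series are its members. LNCaP is an established line from a human prostate cancer that keeps a working androgen response. All cells of the inhibitor experiment but those at steady state in 10% fetal bovine serum were held for 48 h in medium with 5% charcoal-stripped serum, which removes androgen. The androgen-deprived control received no DHT and no inhibitor, and the DHT cells received 100 nM DHT for 16 h. The merbarone and etoposide cells received 100 µM of the inhibitor for 2 h before the same DHT. A second experiment gave 4 arrays of sorted cells transfected with an sh-control or sh-TOP2B vector, with vehicle or DHT. RNA was hybridised to Affymetrix U133 Plus 2.0 arrays with 54675 probe sets. The labels do not say whether the solvent of merbarone was given to the cells with DHT alone, so merbarone and its solvent cannot be told apart.

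DHT is the most potent natural androgen, and in luminal prostate cells it raises genes such as the kallikreins KLK2 and KLK3 (prostate-specific antigen). Topoisomerase II cuts both strands of DNA, passes another duplex through the gap and reseals it, and LNCaP cells carry the alpha form (TOP2A, made in dividing cells) and the beta form (TOP2B, made throughout). Merbarone is a catalytic inhibitor that stops the enzyme before it cuts, whereas etoposide traps it on cut DNA. Dividing-cell TOP2A was below the array median on the deprived, DHT, etoposide and merbarone arrays, and TOP2B had a level of 10.57 with DHT and 10.03 with merbarone, a log2 difference of -0.54.

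Levels are log2 expression values and every difference is a log2 difference, merbarone plus DHT minus DHT unless another pair is named. A difference of at least 1, which is 2-fold, counts as higher or lower. With 1 array a side there is no replicate check on any difference, no test stands behind these counts, and the spread between cultures treated alike is not known. Levels under the array's median (5.61 with merbarone, 5.65 with DHT) are called dim and read as a bound only, so a fold that rests on such a level is written as at least that size. Genes were named by a rule on the size of the difference, and those named beyond it were chosen after their values were seen. Of 19775 genes with a probe set, 11865 passed the filter on mean level.

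The merbarone array stood far from the DHT array. Over the genes that passed the filter, 808 were higher (6.81%) and 895 were lower (7.54%), together 14.4%, and the standard deviation of the differences over genes was 0.75. A difference of at least 4-fold was seen for 145 higher and 127 lower genes, and one of at least 8-fold for 30 higher and 23 lower genes. Between DHT and the deprived control, 29 genes were higher (0.244%) and 5 lower (0.0421%), together 0.287%, with a standard deviation of 0.22. Between etoposide plus DHT and DHT, 74 were higher (0.624%) and 168 lower (1.42%), with a standard deviation of 0.36. The 3 comparisons share the DHT array, so they are set side by side and not correlated with one another. Centring the arrays on the 51 cytosolic ribosomal protein genes moved the median of all genes by -0.12 and turned the balance from 808 higher and 895 lower to 652 higher and 1110 lower, so the near balance of directions is tied to the scaling.

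**Figure D1:**
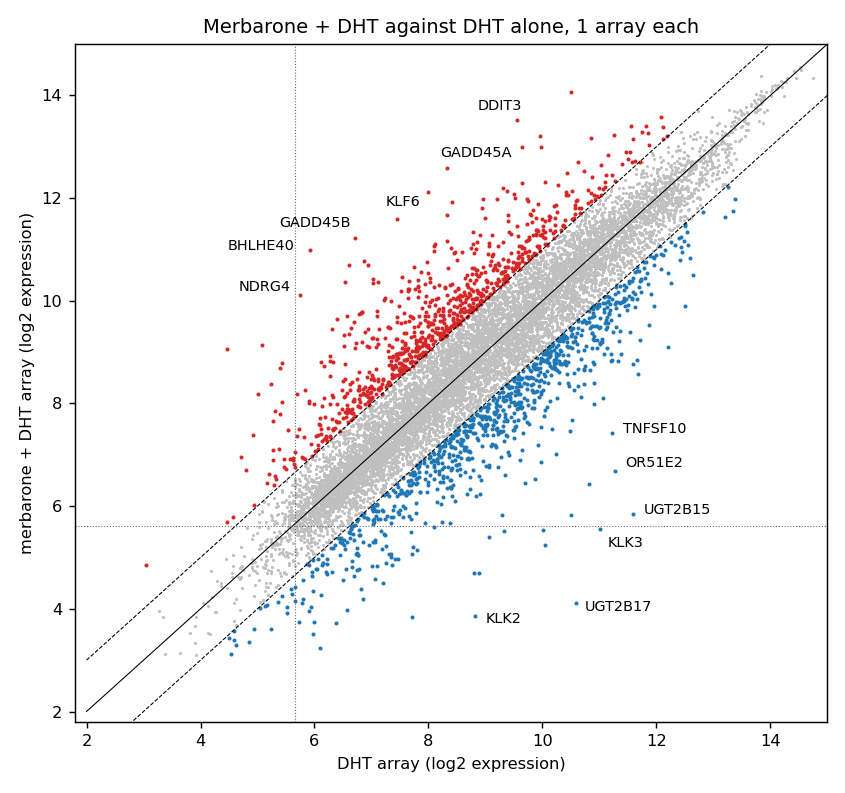
Level of each of 11865 genes on the DHT array (x axis, log2 expression) and the merbarone plus DHT array (y axis, log2 expression), 1 array each. Red points are 808 genes higher by at least 1, blue points 895 genes lower by at least 1, dashed lines mark that difference and dotted lines the array medians; KLK2, KLK3 and UGT2B genes lie far below the diagonal, BHLHE40 and GADD45 genes far above.

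Most of these genes were also displaced from the deprived control, in a comparison that shares the merbarone array. Of the 808 higher genes, 690 were at least 1 above the deprived array as well, and of the 895 lower genes 745 were at least 1 below it. Only 3 of the higher and 15 of the lower genes differed by at least 1 between DHT and the deprived control. Of the 895 lower genes, 123 were dim with merbarone.

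The end ratios of control transcripts were close on the 2 arrays. The 3' minus 5' difference of the beta-actin control probe sets was 0.46 with DHT and 0.38 with merbarone, and that of GAPDH was 0.20 and 0.21. Control probe sets for ribosomal RNA were higher with merbarone, by 0.49 to 1.11 for 18S and by 0.28 to 1.11 for 28S. Their part in the other differences was not tested. Of 14 markers of fibroblasts, endothelium, blood, basal and neuroendocrine cells, 9 were dim on both arrays and 0 differed by at least 1. PTPRC, KRT5, KRT14 and CHGA were among the dim ones. Those not dim on both were COL1A1 (8.05 with DHT and 8.63 with merbarone), VWF (7.79 and 7.41), PECAM1 (6.61 and 6.35), CD3E (6.27 and 5.85) and SYP (dim and 5.88). The log2 of the summed level of the 14 was 9.78 with DHT and 9.89 with merbarone. A longer stromal and immune list had 1 of 4 kept members higher, the smooth muscle actin ACTA2 (8.11 with DHT, 9.06 with etoposide and 9.40 with merbarone). The LNCaP keratins KRT8 and KRT18 had levels of 11.51 and 13.14 with DHT and of 11.14 and 13.10 with merbarone.

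With dim values set to the array median, the 10 genes farthest above the DHT array included stress sensors and transcription factors. BHLHE40, a basic helix-loop-helix repressor of the circadian clock, had a level of 6.89 in deprived cells, 5.93 with DHT, 7.04 with etoposide and 10.99 with merbarone, a difference of 5.06 (33.4-fold). GADD45B, a stress sensor that binds MAP kinase kinase kinases, was at 6.72 with DHT and 11.22 with merbarone (22.7-fold). Its paralog GADD45A, a target of p53, went with it at 8.33 and 12.59 (19.1-fold). NDRG4 was at 5.75 with DHT and 10.12 with merbarone (20.6-fold). KLF6, a zinc finger factor of the Kruppel-like family, was at 7.44 and 11.60 (17.8-fold). The remaining 5 were NEURL3, GBP1 (an interferon-inducible GTPase), DDIT3 (CHOP, the stress-induced C/EBP factor), HSPBAP1 and UAP1L1, with differences from 4.12 down to 3.83. In all 10 genes the merbarone level was the highest of the deprived, DHT, etoposide and merbarone arrays, and the etoposide level lay at least 2.07 below it.

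The 10 genes lowest below the DHT array were led by androgen-metabolising enzymes, a kallikrein and surface proteins. UGT2B15, which glucuronidates DHT metabolites, was at 11.59 in deprived cells, 11.59 with DHT, 10.14 with etoposide and 5.85 with merbarone, a difference of -5.74 (53.5-fold). KLK3 was at 5.68, 11.02, 7.68 and 5.56 on the same arrays, at least 42.3-fold lower with merbarone than with DHT. UGT2B17 was at 9.38, 10.59, 8.24 and 4.11, at least 31.4-fold lower, and UGT2B28 at 9.65, 10.05, 8.97 and 5.24, at least 21.6-fold lower. These 3 enzymes are near-identical in sequence, so how far each probe set reads its own gene is uncertain. UGDH, which makes the glucuronic acid donor, had levels of 9.68 and 9.22 and was not lower by 1. SLITRK3, a neuronal surface protein, was at 10.49 with DHT and 5.83 with merbarone (25.4-fold lower). OR51E2, the prostate odorant receptor, was at 11.61 in deprived cells, 11.26 with DHT, 7.21 with etoposide and 6.69 with merbarone (23.8-fold lower than with DHT), and here both inhibitor arrays were low. The other genes were LPAR6, a lysophosphatidic acid receptor (at least 21.1-fold lower), the hormone RLN1 (10.81 with DHT and 6.42 with merbarone), the death ligand TNFSF10 (TRAIL, 13.9-fold lower) and FASTKD5, a mitochondrial RNA-processing protein (at least 13.1-fold lower). KLK3 was the only one of these 10 that was dim or near it in deprived cells; the other 9 had deprived levels of 9.21 or more.

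**Figure D2:**
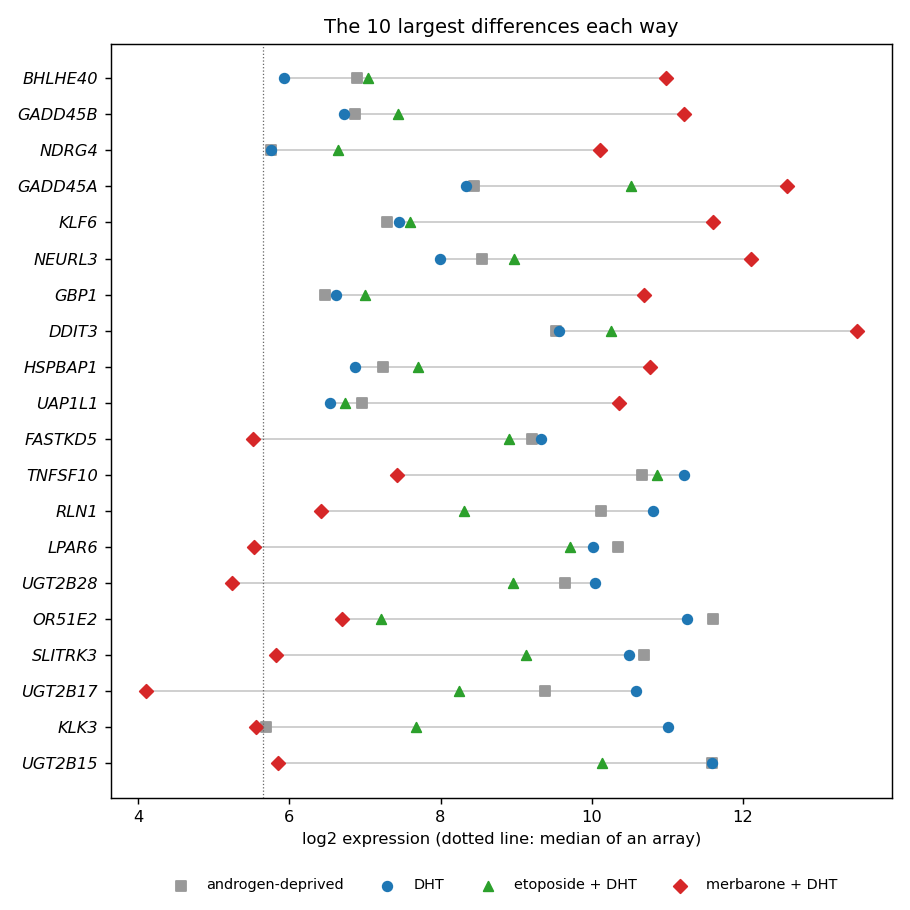
Levels (log2 expression, x axis) of the 10 genes with the largest positive and the 10 with the largest negative difference, on the androgen-deprived, DHT, etoposide plus DHT and merbarone plus DHT arrays, 1 array each; grey lines join DHT and merbarone. The merbarone level is the outermost point of every gene, as for BHLHE40 at 10.99 and UGT2B15 at 5.85.

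Genes that DHT had raised on other arrays were read next. No array had merbarone without DHT, so a change of the DHT response and an effect of merbarone without DHT cannot be told apart. The choice used the 2 shRNA pairs only, which share no array with the comparison: 145 genes were higher by at least 1 with DHT in both pairs. In the inhibitor-series pair only 22 of the 145 were higher by at least 1 with DHT, with a median of 0.38. With merbarone 35 of the 145 were lower (24.1%, against 7.54% of all genes) and 12 higher (8.28%, against 6.81%), with a median of -0.37. Against the deprived control 17 of them were lower with merbarone (11.7%, against 7.26% of all genes) and 21 higher (14.5%, against 7.04%), with a median of 0.05. The genes with the largest negative differences were KLK3, SLC45A3, KLK2, PMEPA1 and PLPP1. Those with the largest positive ones were IRS2 (7.83 with DHT and 10.20 with merbarone), PRAG1 (6.83 and 9.20), TIPARP, TNFAIP8 and RAD54B. Between DHT and the deprived control these differed by -0.43 (TIPARP) to 0.82 (IRS2). Of 105 genes that DHT lowered in both shRNA pairs, 21 were lower with merbarone (20%) and 11 higher (10.5%), with a median of -0.33. SLITRK3 and OR51E1, a second prostate odorant receptor (8.80 with DHT and dim with merbarone), were among those lower, and FGF13 (7.75 and 10.67) and DMRT1 among those higher.

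Among 22 genes that DHT raised by at least 1 in all 3 pairs, 12 were at least 1 lower with merbarone and 0 higher, with a median of -1.11; the inhibitor-series pair is one of the 3 and holds the DHT array of this comparison, so that array had to be high in them and no weight is put on the count. The level with merbarone was at or below the deprived level in 9 of the 22, and the level with etoposide in 0. In 3 of the 9 (KLK2, ANKRD29 and HPGD) both levels were dim and have no order. With dim values set to the array's median, GREB1, STEAP4, ANKRD29 and HPGD were no longer at least 1 lower with merbarone than with DHT. KLK2, the kallikrein beside KLK3, was at 4.04 deprived, 8.82 with DHT, 6.16 with etoposide and 3.86 with merbarone, and so dim on both outer arrays. TMPRSS2, a serine protease fused to ETS genes in many prostate tumours, was at 9.84, 11.35, 10.02 and 9.41. SLC45A3, the prostate sugar transporter prostein, was at 8.46, 9.87, 9.34 and 6.52, well under its deprived level. PMEPA1, an androgen-induced inhibitor of TGF-beta signalling, was likewise under it, at 9.37, 10.48, 9.54 and 7.46, in the probe set used only: its other probe sets had differences of -0.86 and -0.95 and stayed above their deprived levels. FKBP5, a co-chaperone of HSP90, was the reverse case: its levels were 9.33, 10.34, 9.41 and 10.11, so the merbarone array kept most of the DHT difference while the etoposide array was near the deprived level. ZBTB16 (9.39 with DHT and 8.45 with merbarone), C1orf116, STK39, CENPN and STYXL2 also stayed above the deprived level. SNAI2 was dim in deprived cells and at 5.82, 6.48 and 6.03 on the other arrays, a difference of 0.21.

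**Figure D3:**
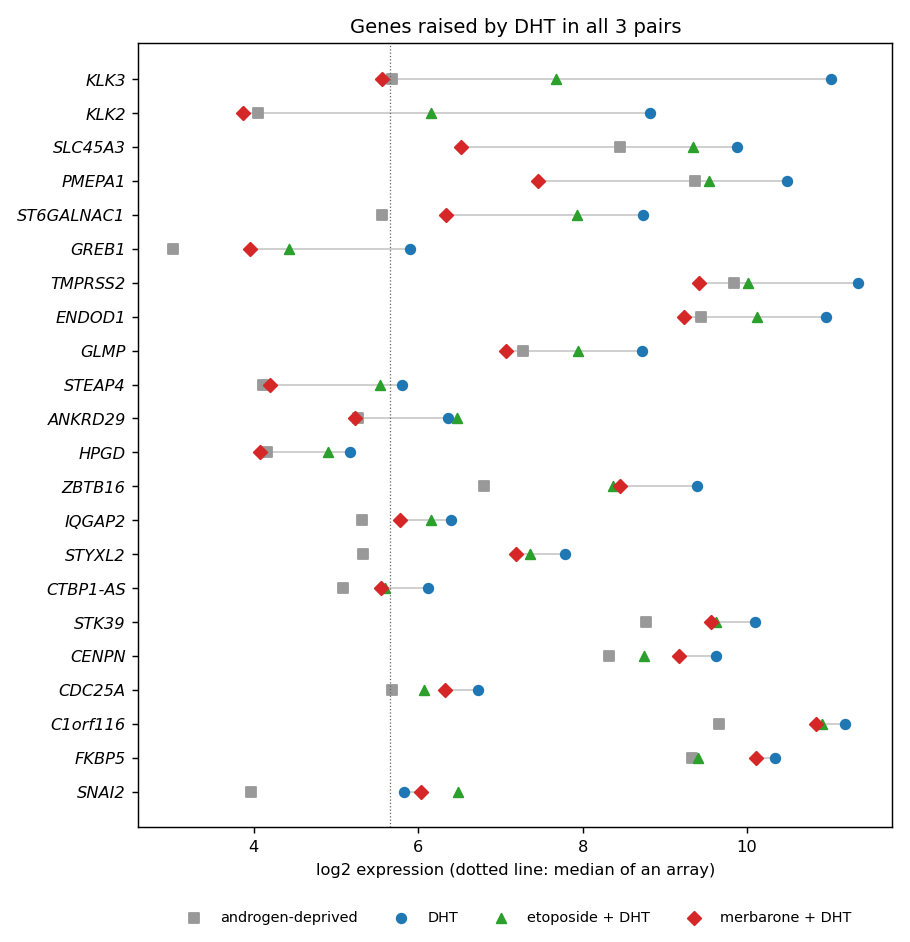
Levels (log2 expression, x axis) of the 22 genes that DHT raised by at least 1 in all 3 pairs of the series, on the androgen-deprived, DHT, etoposide plus DHT and merbarone plus DHT arrays, 1 array each, in order of their difference. Merbarone lies at or left of the deprived point in 9 genes, KLK3 and KLK2 among them, and near the DHT point for FKBP5 and C1orf116.

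In a list of known androgen-induced genes, 16 of 51 kept members were lower with merbarone (31.4%, against 7.54% of all genes). TIPARP was the 1 higher (1.96%, against 6.81%). The list median was -0.43, against 0 over all genes. With dim values set to the array's median, the lower members HPGD, GREB1 and STEAP4 were no longer past 1. Their differences were then -0.04, -0.28 and -0.18, and the list median was -0.40. Several of the lower members are not kallikreins: ADAMTS1, a secreted protease, was at 12.21 with DHT and 9.09 with merbarone, and UAP1, which makes the hexosamine donor UDP-N-acetylglucosamine, at 13.35 and 11.75. The kinase CAMKK2 was at 9.37 and 7.67, and the transporter ABCC4 at 10.46 and 8.81. KLK4, which lies in the same kallikrein cluster as KLK2 and KLK3, was not lower (8.55 and 9.18). Against the deprived control, 7 of the 51 were lower with merbarone and 6 higher, where 7.26% of all genes were lower and 7.04% higher. The luminal identity list had 7 of 17 lower (41.2%, against 7.54% of all genes) and 1 higher (5.88%, against 6.81%), with a median of -0.76. KLK3 and SLC45A3 are lower members of both lists, so the luminal count in part repeats the androgen-induced one. The lower members of the luminal list also included HOXB13 (11.09 and 9.56), a homeobox factor of the prostate whose other probe set differed by -0.81. Another was GRHL2 (10.88 and 9.76), an epithelial factor. CREB3L4 and ACP3, the prostatic acid phosphatase, were lower too, ACP3 in 1 of 2 probe sets above the array median. The pioneer factor FOXA1 was at 10.58 and 9.81 and did not reach a difference of 1, and the adhesion genes CDH1 (13.04 and 12.97) and EPCAM (12.52 and 12.17) differed less. ELF3, an epithelial ETS factor, was the member higher, at 9.49 and 12.07, although its probe sets differed from -0.30 to 2.58.

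Probe sets of a gene did not always move alike. Of 126 genes past 1 that were named by the rule or belong to a list, and that have several probe sets above the array median, 73 (57.9%) had all of these past 1 in the same direction, and 0 had one past 1 in the opposite direction. The probe sets of KLK3 were at 11.02, 11.31 and 8.41 with DHT, and with merbarone they were dim, at 6.43 and at 8.01. Those of KLK2 above the array median were at 8.82, 8.11 and 5.93 with DHT and dim with merbarone, so the last can differ little. OR51E2 had probe sets at 9.53, 10.05 and 11.26 with DHT, of which the first 2 were dim with merbarone and the last was at 6.69. UGT2B15 had a second one at 8.91 with DHT that was dim with merbarone. Among other named genes, TFEB, ACP3, ZNF248, SPRY1 and YARS1 were past 1 in 1 of 2 probe sets above the array median. So were MTHFD2, OPTN and MAP1LC3B. HEXIM1 and CLK4 were past 1 in 1 of 3, SRSF5 in 2 of 3 and LUC7L3 in 3 of 5. These are examples, and further named genes have the same limit.

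p53 raises a set of arrest, repair and death genes when DNA is damaged or the nucleolus is disturbed. Of 34 kept p53 targets, 23 were higher with merbarone (67.6%, against 6.81% of all genes) and 1 lower, with a median of 1.39. With etoposide 14 were higher and 1 lower, with a median of 0.81. CDKN1A (p21, the arrest protein) was at 11.25 with DHT, 13.02 with etoposide and 13.22 with merbarone, so the inhibitor arrays were close together. MDM2, the ligase that degrades p53, was likewise at 9.78, 11.62 and 11.69, and 6 of its 10 probe sets were past 1, with differences from 0.09 to 4.34. PHLDA3, an AKT inhibitor, was at 8.94, 9.98 and 11.80, and the exonuclease AEN at 8.32, 9.14 and 11.16; for these the merbarone array stood above etoposide by 1.82 and 2.02. TP53I3 (6.99, 9.69 and 8.32) and TRIM22 (differences of 2.28 with etoposide and 1.31 with merbarone) were higher with etoposide than with merbarone. The member lower was ABCA12, a lipid transporter, at 9.26 with DHT, 6.67 with etoposide and 6.96 with merbarone.

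In the BCL2 family, genes that promote death and 1 that opposes it were higher. The BH3-only gene PMAIP1 (NOXA) was at 9.74 with DHT and 11.95 with merbarone, and the pore former BAX at 7.99 and 9.70. BCL2 itself, which opposes death, was at 5.84 and 8.26, with a difference of 0.59 when its probe sets were summarised by their median. With HRK, 4 of 16 kept members were higher (25%, against 6.81% of all genes) and 0 lower. MCL1, which has a short-lived transcript, was at 12.38 and 12.03. On the receptor side FAS was at 9.21 with DHT and 11.97 with merbarone, and the TRAIL receptors TNFRSF10A (8.71 and 10.15) and TNFRSF10B (11.56 and 12.71) were higher with CASP8 and CFLAR. Of the probe sets above the array median, 1 of 3 was past 1 for TNFRSF10A, 1 of 2 for CASP8 and 3 of 12 for CFLAR. The TRAIL ligand TNFSF10 (11.23 and 7.42) and the decoy receptor TNFRSF10D (10.67 and 9.33) were lower.

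Cell cycle genes of the G1 phase were higher for 3 of 17 kept members (17.6%, against 6.81% of all genes) and lower for 0. They were the kinase inhibitors CDKN1A, CDKN2A (9.64 with DHT and 11.02 with merbarone) and CDKN2B (6.85 and 8.21). CDKN2A and CDKN2B were past 1 in 1 of 2 probe sets above the array median, and the others differed by 0.72 and 0.81. Of 30 kept mitosis genes 7 were lower (23.3%, against 7.54% of all genes) and 0 higher, with a median of -0.57. However, 12 were dim on both arrays. Once dim values were set to the median of the array, 1 was lower and the median was -0.29. Of 36 DNA replication genes 5 were lower (13.9%, against 7.54% of all genes) and 1 higher (2.78%, against 6.81%). Once dim values were set to the median of the array, 2 were lower, CCNE2 and GINS1, and the median went from -0.18 to -0.08. The higher one was TYMS, the thymidylate synthase, at 8.96 with DHT, 11.19 with etoposide and 10.66 with merbarone. CCNE2, a cyclin of the G1/S step, was at least 3.23-fold lower. Break repair and checkpoint genes had 1 of 27 higher (PALB2, 7.60 and 9.14) and 1 lower (BARD1, 11.49 and 9.83). These shares, 3.7% each, were below those of all genes (6.81% and 7.54%), and the counts are too small to read. PALB2 and BARD1 act with BRCA1 in homologous recombination, and BARD1 was at 9.81 with etoposide, next to its merbarone level.

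The integrated stress response couples amino acid lack, heme lack, viral RNA and unfolded protein to phosphorylation of eIF2alpha, which lets the factor ATF4 raise a set of amino acid and stress genes. Of 34 kept members 15 were higher with merbarone (44.1%, against 6.81% of all genes) and 1 lower (2.94%, against 7.54%). The median was 0.75. With etoposide 0 were higher and 0 lower (0.624% and 1.42% of all genes), and the median was -0.05. Among the factors, DDIT3 was at 9.56 with DHT, 10.25 with etoposide and 13.51 with merbarone, ATF3 at 10.50, 11.31 and 14.06, and the pseudokinase TRIB3, which restrains ATF4, at 9.96, 9.85 and 13.22. Feedback genes followed: PPP1R15A (GADD34), which brings the eIF2alpha phosphatase, was at 6.83 and 9.77, and SESN2, an inhibitor of mTORC1, at 8.46 and 10.94. In the amino acid branch SLC3A2, the heavy chain of several amino acid exchangers, was at 10.85 and 13.16. Asparagine synthetase ASNS was at 11.63 and 12.72, and the mitochondrial folate enzyme MTHFD2 at 11.23 and 12.44. SLC7A5, a light-chain partner of SLC3A2, was at 7.45 and 6.48. The member lower was VLDLR (8.50 and 7.26). Of the aminoacyl-tRNA synthetases, cytosolic SARS1, YARS1 and AARS1 were at 11.47, 10.99 and 12.18 with DHT and at 12.90, 12.19 and 13.20 with merbarone. Mitochondrial LARS2 and IARS2 had differences of -1.56 and -1.24. These 5 were the ones past 1 among 32, with a list median of 0.02. Their shares, 9.38% higher and 6.25% lower, were close to those of all genes (6.81% and 7.54%).

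The unfolded protein response proper, which raises the chaperones of the endoplasmic reticulum, did not go the same way. Of its 24 kept members 1 was higher (4.17%, against 6.81% of all genes) and 3 were lower (12.5%, against 7.54%), counts too small to read. Of the differences 19 lay below 0, and the median was -0.36. The higher one was ERN1 (IRE1), the sensor of unfolded protein, at 10.61 and 12.70. The lower ones were CRELD1 (8.68 and 7.47), SDF2L1 (10.20 and 9.04) and MANF (11.78 and 10.65), and the protein disulfide isomerases PDIA4 and PDIA6 had differences of -0.70 and -0.90.

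The promoters of 5 higher genes of the integrated stress response, clock and NF-kB lists are shown because they hold a motif that was searched for; other higher genes of these lists, such as DDIT3, are not shown. Windows run from 250 bases before to 50 after the RefSeq start (GRCh38.p14), printed 5' to 3' on the strand of the gene. The motifs, searched on both strands and chosen after values were seen, were the core of the C/EBP-ATF element TGATGNAA, held by 3.67% of 27305 promoters, the E-box CACGTG (7.43%), the cyclic AMP response element TGACGTCA (1.98%) and one form of the NF-kB site GGAATTTCC (0.472%). None of these motifs contains another. Capitals mark a match, which may lie on either strand, and a match is a description of the sequence only. The first pair hold the C/EBP-ATF core, the next pair the E-box, and the last the NF-kB site.
ATF3, chr1:212565157-212565456, plus strand: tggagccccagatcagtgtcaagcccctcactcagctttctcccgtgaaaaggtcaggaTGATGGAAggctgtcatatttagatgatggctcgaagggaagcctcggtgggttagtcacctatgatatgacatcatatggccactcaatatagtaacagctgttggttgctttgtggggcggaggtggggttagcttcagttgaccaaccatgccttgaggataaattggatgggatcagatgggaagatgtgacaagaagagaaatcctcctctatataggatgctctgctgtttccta
SLC3A2, chr11:62881449-62881748, plus strand: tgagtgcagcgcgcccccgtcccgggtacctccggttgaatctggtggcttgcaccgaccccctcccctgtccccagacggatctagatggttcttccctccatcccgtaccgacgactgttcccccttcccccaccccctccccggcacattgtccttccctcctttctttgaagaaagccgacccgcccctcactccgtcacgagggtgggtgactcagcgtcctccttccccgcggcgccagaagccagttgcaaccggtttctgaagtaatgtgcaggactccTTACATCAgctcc
BHLHE40, chr3:4979187-4979486, plus strand: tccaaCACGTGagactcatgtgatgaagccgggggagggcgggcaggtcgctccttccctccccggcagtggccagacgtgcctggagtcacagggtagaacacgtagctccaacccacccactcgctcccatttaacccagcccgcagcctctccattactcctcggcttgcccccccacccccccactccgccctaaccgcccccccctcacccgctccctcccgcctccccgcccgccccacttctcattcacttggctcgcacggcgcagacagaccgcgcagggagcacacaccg
CIART, chr1:150282304-150282603, plus strand: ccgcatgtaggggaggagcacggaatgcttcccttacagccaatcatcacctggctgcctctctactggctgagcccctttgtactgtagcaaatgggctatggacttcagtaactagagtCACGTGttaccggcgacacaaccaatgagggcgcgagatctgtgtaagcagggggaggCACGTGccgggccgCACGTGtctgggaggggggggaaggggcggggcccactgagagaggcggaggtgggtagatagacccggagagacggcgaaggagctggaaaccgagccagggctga
CXCL8, chr4:73740319-73740618, plus strand: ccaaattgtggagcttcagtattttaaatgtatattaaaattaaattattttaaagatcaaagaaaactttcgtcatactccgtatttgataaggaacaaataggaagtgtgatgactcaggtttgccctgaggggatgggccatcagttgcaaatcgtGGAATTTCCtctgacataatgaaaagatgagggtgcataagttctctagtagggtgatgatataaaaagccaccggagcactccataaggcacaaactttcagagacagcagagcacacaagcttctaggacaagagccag

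The core TGATGNAA was found in 8 of 28 promoters of integrated stress response members, 4 of which belonged to genes higher by at least 1 (ATF3, ASNS, SLC3A2 and AARS1). The promoters of CHAC1, SLC7A1, CARS1 and HERPUD1 also held it, and their genes differed by 0.40 to 0.63. CACGTG was found in 3 of 14 clock promoters, 3 times in that of CIART. TGACGTCA was found in 2 of 15 immediate early promoters, those of JUND and MAFF. GGAATTTCC was found in 5 of 15 promoters of the NF-kB list, of which CXCL8 was the only gene higher by at least 1; NFKBIZ, which also held it, was at 10.25 and 9.27.

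Clock genes were high as a list. The clock is a feedback loop in which BMAL1 and CLOCK raise the PER, CRY, REV-ERB and DEC repressors. Of 14 kept members 8 were higher with merbarone (57.1%, against 6.81% of all genes) and 0 lower, with a median of 1.32. With etoposide 1 was higher and the median was 0.11. After BHLHE40 (DEC1) came CIART, a repressor of BMAL1 and CLOCK, at 6.95 with DHT, 7.49 with etoposide and 10.70 with merbarone. NFIL3, a factor of the D-box, was at 9.64 with DHT and 9.76 with etoposide, and its difference with merbarone was 3.36. BMAL1 (7.52 and 8.97), NR1D2 (9.80 and 11.67), PER2 (8.71 and 9.93) and PER3 (7.56 and 8.99) were higher too, whereas CLOCK was at 10.42 and 10.67 and DBP had a difference of -0.29.

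Immediate early genes respond within minutes to growth factors or stress. They were higher for 7 of 19 kept members (36.8%, against 6.81% of all genes) and lower for 1 (5.26%, against 7.54%). The matricellular gene CCN1 was at 7.02 with DHT, 7.34 with etoposide and 10.43 with merbarone, and the small MAF factor MAFF at 9.30, 9.17 and 12.19. Of the AP-1 subunits, FOS was at 6.96 and 9.10, JUNB at 8.95 and 10.12 and JUND at 11.75 and 13.28. MYC, the growth factor-responsive regulator, was the member lower, at 11.21 with DHT, 9.90 with etoposide and 8.83 with merbarone. Of 13 kept Kruppel-like factors 5 were higher (38.5%, against 6.81% of all genes) and 0 lower. KLF10 and KLF11, which are TGF-beta-inducible, were at 8.96 and 7.53 with DHT and at 11.98 and 10.46 with merbarone. The feedback phosphatase DUSP5, specific to nuclear ERK, was at 8.90 and 11.27, and SPRY1 at 6.31 and 7.69, while SPRED2, another inhibitor of the same pathway, was lower at 8.63 and 7.47.

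**Figure D4:**
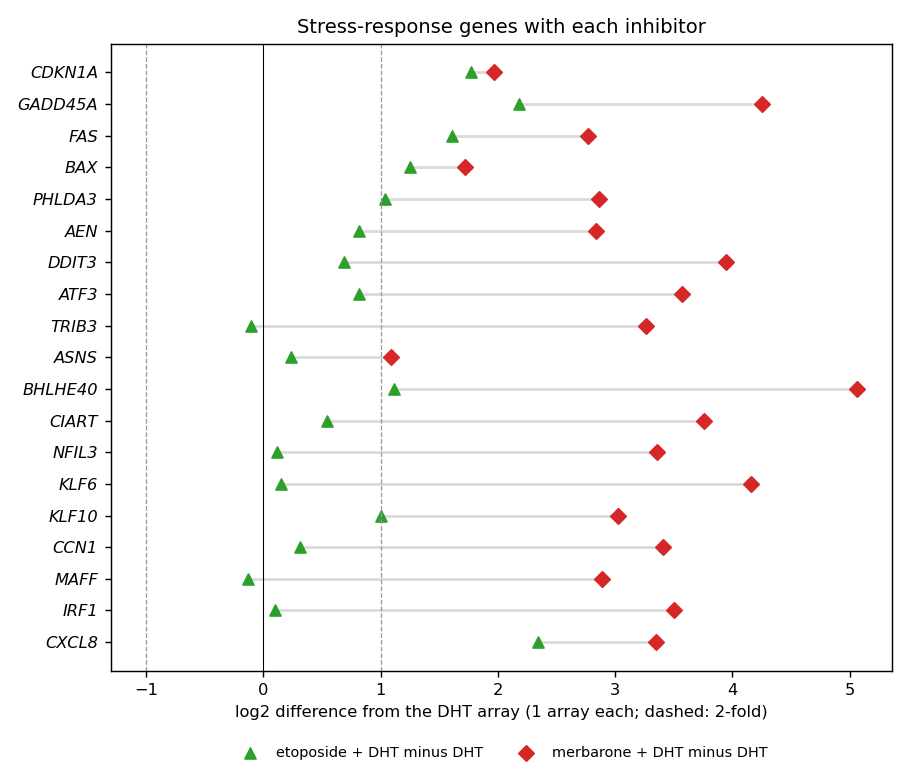
Log2 difference from the DHT array (x axis) of 19 stress-response genes with etoposide plus DHT (triangles) and merbarone plus DHT (diamonds), 1 array each; dashed lines mark 2-fold, and both differences share the DHT array. The symbols lie close for CDKN1A (1.77 and 1.97) and far apart for TRIB3 (-0.10 and 3.26) and KLF6 (0.15 and 4.16); the genes were chosen after their values were seen.

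Of 19 kept NF-kB feedback and chemokine genes 8 were higher (42.1%, against 6.81% of all genes) and 1 lower (5.26%, against 7.54%). IRF1, a factor downstream of interferon gamma and NF-kB, was at 8.42 with DHT, 8.52 with etoposide and 11.92 with merbarone. The neutrophil chemokine CXCL8 was at 8.33, 10.67 and 11.68, high on both inhibitor arrays. CXCL2, a related chemokine that the filter on mean level left out, was dim with DHT and at 10.57 with merbarone, at least 30.3-fold higher. TNF (7.76 and 10.23), RELB (7.57 and 9.76) and the NF-kB inhibitor TNFAIP3 (9.67 and 11.02) were higher, whereas CCL8, a monocyte chemokine, was at 8.89 with DHT, 9.72 with etoposide and dim with merbarone, at least 9.69-fold lower.

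Interferon genes were divided, with 6 of 23 higher (26.1%, against 6.81% of all genes) and 4 lower (17.4%, against 7.54%). GBP1 (6.61 and 10.70), the RNA sensor IFIH1 (8.07 and 10.01), RSAD2 (7.69 and 9.29) and IRF7 (8.75 and 10.22) were higher, as were the immunoproteasome subunits PSMB9 (9.58 and 10.95) and PSMB8 (7.96 and 9.13). OAS1 (difference of -1.37), IFIT1 (9.96 and 8.62), IFI44 and BST2 were lower. IFIT1 was at 8.67 with etoposide, next to its merbarone level.

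**Figure D5:**
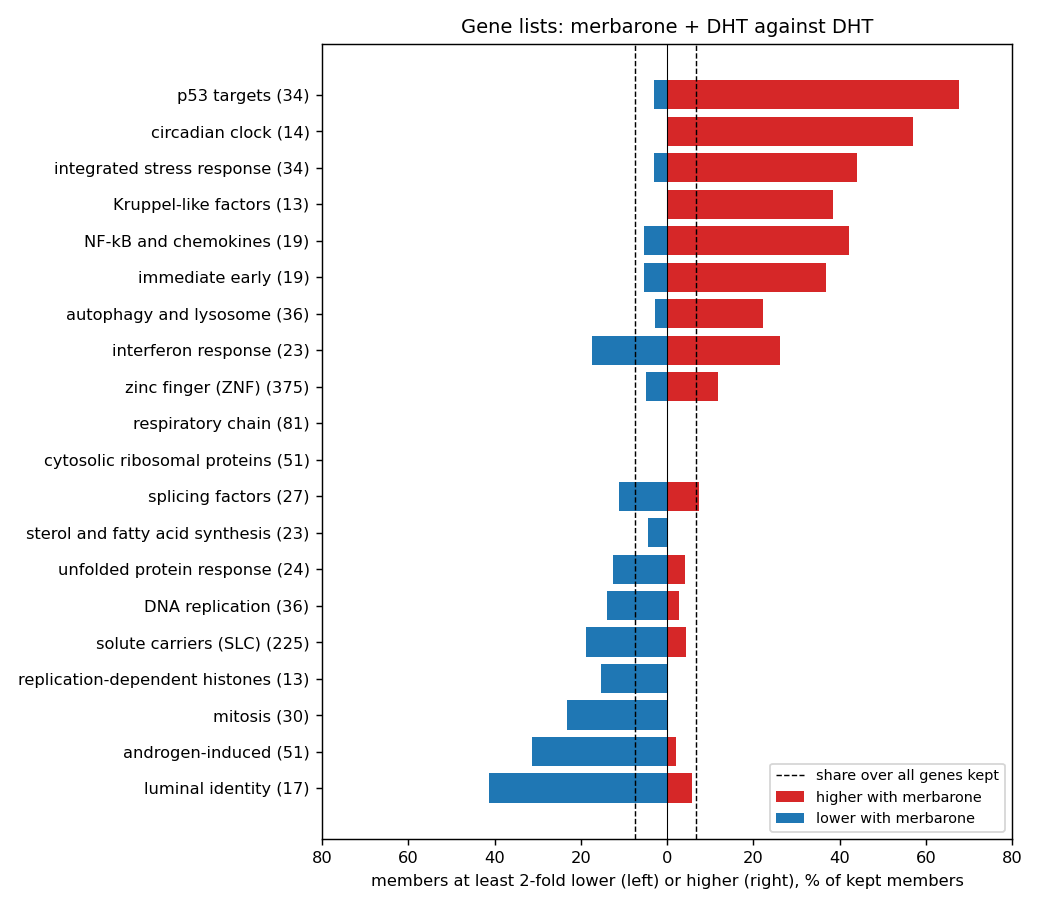
Share of the kept members of 20 gene lists (number in brackets) that were at least 2-fold higher (red, right) or lower (blue, left) with merbarone plus DHT than with DHT, in percent; dashed lines mark the shares over all genes, 6.81% and 7.54%. p53 targets (67.6%) and clock genes (57.1%) reach farthest right, luminal identity (41.2%) and androgen-induced genes (31.4%) farthest left, and cytosolic ribosomal protein and respiratory chain genes have no bar.

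Genes of autophagy and the lysosome were higher for 8 of 36 members (22.2%, against 6.81% of all genes) and lower for 1 (2.78%, against 7.54%). The median was 0.49. With etoposide 0 were higher and 0 lower (0.624% and 1.42% of all genes). They included TFEB (6.33 and 8.12), the regulator of lysosomal genes, FLCN (7.65 and 10.04) and FNIP1, which hold TFEB in check through the RAG GTPases, and RRAGD. UVRAG (7.29 and 9.49) and ATG14 act in the lipid kinase complex that starts autophagosomes, OPTN is a cargo receptor, and MAP1LC3B (11.09 and 12.21) coats the membrane. The lysosomal galactosidase GLA was lower (9.41 and 7.96). Metallothioneins, which bind zinc and copper, had 7 of 8 differences above 0 and a median of 0.87, with MT1G (10.65 and 11.81) and MT1X (11.27 and 12.34) past 1. Their etoposide median was -0.35. Metallothionein genes share sequence, so the member measured is uncertain and the 8 may not be separate readings. The heme oxygenase HMOX1 was at 7.12 and 9.16. The list of NRF2 targets had 2 of 23 higher (8.7%), 1 lower (4.35%, PRDX1, 13.39 and 11.98) and a median of 0.00. Heat shock genes had 1 of 19 higher (5.26%), the mitochondrial HSPA9 (11.50 and 12.76), and 1 lower (5.26%), HSPH1 (11.33 and 9.97). Over all genes the shares were 6.81% and 7.54%, so the NRF2 and heat shock counts are too small to read.

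Sterol and fatty acid synthesis had 17 of 23 members below 0 and a median of -0.66, with 1 lower by at least 1, the elongase ELOVL6 (9.56 and 8.40). Other members just short of it were SREBF1 (10.52 and 9.56), the factor that drives the pathway, and MSMO1, ACLY and SQLE, with differences of -0.95, -0.88 and -0.87. Membrane transporters of the solute carrier families were lower for 42 of 225 (18.7%, against 7.54% of all genes) and higher for 10 (4.44%, against 6.81%). SLC45A3 led those lower, with the acetyl-coenzyme A transporter SLC33A1 at 11.66 with DHT and 8.84 with merbarone, and SLC22A15 (6.83 and 9.78), SLC3A2 and the phosphate transporter SLC20A1 (9.39 and 11.56) led those higher. Genes named ZNF, mostly zinc finger repressors, went the other way, with 44 of 375 higher (11.7%) and 18 lower (4.8%); ZNF555 was at 7.12 and 10.37, and ZNF248 at 8.38 and 5.67.

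Genes of RNA processing were mixed, with shares close to those of all genes (6.81% higher and 7.54% lower). Of 27 splicing factors 2 were higher (7.41%), the kinases CLK1 (9.57 and 11.26) and CLK4 (9.59 and 11.06) that phosphorylate SR proteins, and 3 were lower (11.1%), LUC7L3 (11.32 and 8.83), SRSF6 (10.88 and 9.25) and SRSF5 (11.69 and 10.26). SRSF6 was lower in 1 of its 2 probe sets, and the other differed by -0.15. HEXIM1, which holds the elongation factor P-TEFb inactive, was at 10.29 and 8.61. Of 29 ribosome biogenesis genes 2 were higher (6.9%), WDR43 (8.77 and 10.52) among them, and 2 lower, the RNA polymerase I factors UBTF (8.28 and 6.76) and POLR1A (7.61 and 6.21). Both rest on 1 probe set: the difference over the median of UBTF's probe sets was 0.38, and the other probe sets of POLR1A differed by 0.16 and 0. The snoRNA host SNHG17 was at 7.24 and 10.05. Replication-dependent histones had 11 of 13 below 0 and a median of -0.60, with H2BC21 (12.64 with DHT, 12.96 with etoposide and 10.51 with merbarone) and H2BC4 lower by at least 1; histone genes share sequence, so the member measured is uncertain.

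Few genes of some large groups were past 1, against 14.4% of all genes. Of 51 cytosolic ribosomal protein genes 0 differed by at least 1, and their range was -0.18 to 0.95. Of 81 respiratory chain genes 0 did, with a median of 0.01 that turned negative when arrays were centred on the median gene or on ribosomal protein genes. Among 75 mitochondrial ribosomal proteins 1 was higher and 1 lower, and among 43 proteasome subunits 2 were higher, which were PSMB8 and PSMB9.

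Short-lived transcription regulators were past 1 both ways, with 6 of 30 higher (20%) and 6 lower (20%), against 6.81% and 7.54% of all genes. MAPK feedback had 3 of 17 higher (17.6%) and 1 lower, dual-specificity phosphatases 3 of 20 higher (15%) and 0 lower, polyamine genes 2 of 14 higher (14.3%) and 0 lower, glycolysis and hypoxia genes 4 of 34 higher (11.8%) and 1 lower, and aryl hydrocarbon genes 2 of 6 higher (33.3%) and 0 lower. Counts this small can turn on 1 gene. Ubiquitin-specific proteases had 0 of 45 higher and 3 lower (6.67%), RAB GTPases 5 of 56 higher and 5 lower, tripartite motif genes 4 of 40 higher and 1 lower, keratins 1 of 7 lower, and epithelial-mesenchymal transition genes 1 of 6 higher, TWIST1 (7.64 and 9.09).

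Median differences were near 0 at every gene length. In 10 bins of genes by genomic span, the median difference lay between -0.04 and 0. The share lower was 6.49% in the shortest bin (up to 4.5 kb) and 9.61% in the longest (over 148 kb), and the share higher was 6.91% and 8.01%. On the etoposide array the longest bin had a median of -0.17, against -0.05 for the shortest.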

How the data were processed

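RNA of LNCaP cells was measured on 9 Affymetrix U133 Plus 2.0 arrays, 1 per group, grouped by their titles. The deposited values are log2 expression values made with RMA, per the submitters' processing notes; RMA makes array distributions alike, so a shift shared by most genes is removed. Its version is not given in the sources used here. Of 54675 probe sets, 41091 had 1 gene symbol, 1801 several and 11777 none, apart from control probe sets, and 41037 matched RefSeq by gene ID. Each gene took the brightest of its probe sets, by mean over all 9 arrays (another can be brighter on the 2 arrays compared), and genes under the 40th percentile of that mean were left out, a filter on all arrays, so genes high on 1 array only can be lost. Array medians lay between 5.61 and 5.72. The main value was the plain difference of the 2 arrays, with no test. An additive fit in limma 3.58.1 (R 4.3.3), whose spread comes from the 3 DHT pairs, was an alternative; limma adjusted p-values used Benjamini-Hochberg. 1 array a side limits the precision, and intervals cannot be given. Named genes were the 10 largest differences each way once dim values were set to the median of the array, in each list the 3 largest and up to 2 in the opposite direction, 6 topoisomerase and androgen genes, and for the genes chosen on the shRNA pairs the 5 largest each way. There were 36 hand-made gene lists and 14 families defined by symbol. The members and the lists were chosen with earlier results of these data known. Some genes are not reported here. Computations used Python 3.11.15 and pandas 2.3.3.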

Additional observations from a re-analysis of the deposited data

How the results depend on the processing

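The number of genes at least 1 higher lay between 548 and 907, and of genes at least 1 lower between 683 and 1110, under another summary of probe sets (median), no filter, the 60th percentile filter, centring on the median gene, on ribosomal protein genes or on bacterial hybridization controls, renewed quantile normalization, and with dim values set to their array's median; the main counts were 808 and 895. Centring on hybridization controls was chosen after seeing the data. Taking an adjusted p under 0.05 in limma in place of a 2-fold difference gave 1823 higher and 1933 lower genes, a call that assumes the lone arrays to vary like the DHT pairs. The share of calls that were higher was 47.4%, 37.0% with centring on ribosomal protein genes. With the deprived array as reference the counts were 835 higher and 861 lower. Of 145 genes raised by DHT in the shRNA pairs, the share lower stayed between 18.2% and 26.9%. Gene list counts moved by over 1.5 times in 69 of 800 recomputations. Under the median over probe sets, HK2 had a difference of -0.75, UBTF 0.38, RAB40B 0.37 and TOP2A 0.33, opposite to their main values. Ribosomal centring lowers every difference by 0.12, so list medians above 0 by less than that turned negative. These were the MAPK feedback, interferon, glycolysis, polyamine, proteasome, NRF2, tRNA synthetase, respiratory chain, topoisomerase, ubiquitin-specific protease and stromal and immune lists. No paired analysis was possible because each group had 1 array and no replicate number. Arrays could not be left out, since each side of the comparison is 1 array. Values near background limit the lower genes, 123 of which were dim with merbarone.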

Other observations

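For 47 genes with several probe sets above the array median, 1 probe set was at least 1 higher with merbarone and another at least 1 lower, 2.46% of the 1914 genes with any probe set past 1. With etoposide it was 1 gene of 338 (0.296%), and between DHT and the deprived control 0 of 30. Some of these probe sets were dim on 1 of the arrays: with dim values set to the array's median, 35 of the 47 genes remained past 1 both ways, and 0 with etoposide. In 371 of the 1914 genes (19.4%) all such probe sets were past 1 in the same direction. The genes named here were chosen after their values were seen, and where each probe set lies in its transcript was not analysed here. Among them are several RNA-binding proteins. SRSF11, a splicing factor, had 1 probe set at 7.31 with DHT and dim with merbarone, another at 6.06 and 7.17, and its brightest at 12.19 and 11.90. U2SURP, a component of the U2 splicing particle, had 1 probe set at 7.74 with DHT and 6.18 with merbarone and another dim with DHT and at 7.64 with merbarone. ZC3HAV1, the zinc finger antiviral protein, had probe sets at 11.38 and 10.85 with DHT that were at 8.95 and 7.95 with merbarone, and another at 6.87 and 8.25. ZNF451, a SUMO ligase that acts with the topoisomerase II adduct enzyme TDP2, had -2.54, 0.87 and 2.17. The inositol kinase IP6K2 had -2.51 and 1.18, and WDFY3, an autophagy scaffold, had 1 at 7.49 and 6.19 and another dim with DHT and at 8.63 with merbarone.

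A few genes lay on opposite sides of the DHT array with the inhibitors, and the 6 that were past 1 both ways are named. ANKRD36B was at 7.19 with DHT, 9.30 with etoposide and dim with merbarone. VNN1, a pantetheinase, was at 8.39, 9.74 and 6.36, TNFSF18 at 8.66, 10.02 and 7.39, and TMPRSS11E at 7.10, 8.13 and dim. The phosphodiesterase PDE10A was at 9.89, 8.50 and 11.37, and RIMKLB at 6.33, dim and at 7.50; with that dim value set to the array's median RIMKLB was no longer past 1 with etoposide. The difference between the inhibitors has no replicate check.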
